A study of Mus musculus with 12 samples.

Results

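Bcl11b (ENSMUSG00000048251.15, mm10 chr12:107910403-108003602, minus strand) was examined together with the gene desert that lies beyond its 3' end. The peaks of 12 DNase-seq libraries were taken from 50 kb upstream of its start site, through the gene, to 1 Mb beyond the gene end (chr12:106910403-108053602). Merged over the libraries wherever they overlapped by at least 1 bp, these peaks formed 89 sites, of 170207 on the autosomes and X chromosome. Of the 89, 7 lay upstream, 13 in the gene body, 31 in the near desert (up to 500 kb beyond the gene end) and 38 in the far desert (500 kb to 1 Mb beyond it).

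BCL11B is a zinc finger transcription factor that T cell precursors switch on at commitment. Without it, precursors keep progenitor genes active and can turn into NK-like cells. Its gene sits beside a desert in which distal enhancers are known, and one enhancer region far from the gene is transcribed into the non-coding RNA ThymoD. Notch signalling, TCF1, GATA3 and RUNX factors are known inputs of the gene.

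DNase-seq maps accessible chromatin as peaks of DNase I cutting, also called DNase I hypersensitive sites (DHSs). LSK cells (3 libraries) are lineage-negative SCA1+ KIT+ stem and progenitor cells freshly sorted from C57BL/6J marrow. DN1 (KIT++ CD44+ CD25-, 2 libraries), DN2a (KIT++ CD44+ CD25+, 2 libraries) and DN2b (KIT+ CD44lo CD25+, 2 libraries) are successive double-negative T cell precursors, sorted from LSK cultures on the immobilized Notch ligand Delta1. The IgG group (3 libraries) was LSK cells cultured on human IgG without Notch ligand. By the study's methods IL-7 was added to the cultures that gave DN2a and DN2b cells but not to those that gave DN1 cells, so the effects of IL-7 and of stage cannot be told apart between DN1 and DN2. LSK cells were not cultured. Where Delta1-cultured libraries are compared with LSK and IgG, ligand, culture, IL-7 and stage therefore cannot be told apart. The study's methods derive DN1, DN2a and DN2b cells from each LSK replicate. The labels do not resolve which libraries share an LSK isolate, so the tests treat the libraries as independent.

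Read depth is unknown, because each library is a list of 150 bp peaks with a whole-number score. The IgG lists were the shortest, with 32952 to 37511 peaks, followed by LSK with 53869 to 62377. DN1 lists held 96436 and 69391 peaks, DN2a lists 68478 and 57729, and DN2b lists 61484 and 111582. The score was therefore read as a percentile within its own list, with 0 for no peak, and counts were repeated on lists cut to the same length, with the 32952 top-scoring peaks of every library (equal list lengths). The labelled stages were checked against 10 promoters of T precursor genes, of which 0 or 1 was open in LSK and 0 in IgG, 3 in both DN1 libraries, 6 in both DN2a libraries, and 8 and 9 in DN2b. The promoter of Il2ra, which encodes the CD25 used for sorting, had a peak in the 4 DN2 libraries only.

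Markers of other cell types were checked at their promoters too, and some moved with the groups. Of 6 NK and innate promoters, 1 or 2 were open in LSK, 5 and 4 in DN1, 2 and 3 in DN2a, 3 and 5 in DN2b, and 0 in IgG. Gzma, a granule protease of cytotoxic cells, stood at 43.6 and 33.1 in DN1 and between 80.7 and 96.4 in DN2, with no peak in LSK or IgG, and the defining NK gene Ncr1 had no peak in any library. Of 6 mast cell promoters, 1 was open in LSK, 2 or 3 in Delta1-cultured libraries and 0, 0 and 2 in IgG. Cpa3, a mast cell protease gene, stood at 54.3 to 85.0 with Delta1, 30.2 to 52.7 in LSK and 0 in IgG, and Fcer1a and Ms4a2 had no peak in any library. Only peaks within 1 kb of the start of the gene record were counted, and Notch1, Rbpj, Ikzf1 and Ly6a also had none in any library. A marker without a peak was therefore not read as absence of its cell type.

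Myeloid promoters were open in every library, with 3 to 5 of 10 outside IgG and 5 or 6 in IgG, but their percentiles were not level. Spi1, which encodes the myeloid regulator PU.1, stood at 91.7 to 94.7 in LSK and IgG and 66.8 to 89.8 with Delta1. Cebpa, another myeloid regulator, stood at 83.0 to 96.5 in LSK and IgG and 67.7 to 84.2 with Delta1. Of 10 stem and progenitor promoters, 5 to 7 were open outside IgG and 2 to 4 in IgG, and of 6 B lineage promoters 2 outside IgG and 1 or 2 in IgG. Among the stem and progenitor genes, Hlf stood at 70.1 to 82.9 in LSK and 18.4 to 55.2 with Delta1. Cd34 stood at 52.7 to 76.5 in LSK and DN1 and 0 to 39.95 in DN2, and Flt3 at 91.7 to 94.0 and 79.0 to 88.9. Mycn went the other way, at 85.2 to 90.6 in LSK and 90.8 to 95.0 with Delta1. Kit and Meis1 overlapped between LSK and DN2. Over all promoters, 4.77% were called higher with Delta1 and 0.202% lower (adjusted exact permutation test), and among these lists Gzma, Klrb1c, Cpa3 and Mycn were called higher and Spi1 lower. None of these 5 passed at equal list lengths (adjusted p 0.0705 to 0.404 by the exact permutation test), where no promoter of the series had an adjusted p below 0.0705. The part of these markers in the results below was not tested.

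The sequences of the sites on which the results turn are given first, each as the plus strand of GRCm38 (RefSeq, the assembly behind mm10). Each is the strongest 150 bp peak of its site, except that of the promoter, of which only the 81 bases upstream of the longest RefSeq transcript are shown. The far desert pair and the near desert pair were the highest-ranked sites of their region in DN2b, and the intronic site was the highest in the gene body. The promoter and the site 43.8 kb upstream were added after their values were seen, because they were called in the comparison of Delta1-cultured libraries with LSK and IgG. Capitals mark a match to one of 6 motifs searched on both strands: GTGGGAA for RBPJ, the DNA-binding partner of Notch, TGTGGTT for RUNX, CTTTGAA for TCF1 and LEF1, AGATAA for factors of the GATA family, CAGGAAG for ETS factors, and the E box motif CAGCTG. None of these motifs contains another.

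Upstream site, chr12:108047337-108047486, 2 ETS matches: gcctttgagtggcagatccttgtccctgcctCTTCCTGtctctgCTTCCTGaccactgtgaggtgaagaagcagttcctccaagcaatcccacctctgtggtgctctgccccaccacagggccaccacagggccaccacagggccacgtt
Promoter site, chr12:108004146-108004226, no match: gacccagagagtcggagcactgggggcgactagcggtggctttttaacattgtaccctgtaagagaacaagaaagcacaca
Intronic site, chr12:107926217-107926366, no match: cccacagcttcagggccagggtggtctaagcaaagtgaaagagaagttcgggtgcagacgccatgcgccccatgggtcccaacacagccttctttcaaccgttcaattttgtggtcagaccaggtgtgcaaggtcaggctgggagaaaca
Near desert site 241 kb downstream, chr12:107762257-107762406, 1 ETS match: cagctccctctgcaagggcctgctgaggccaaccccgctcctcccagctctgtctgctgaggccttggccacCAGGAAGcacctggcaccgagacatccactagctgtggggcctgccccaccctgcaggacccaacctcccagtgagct
Near desert site 358 kb downstream, chr12:107645637-107645786, 2 ETS matches: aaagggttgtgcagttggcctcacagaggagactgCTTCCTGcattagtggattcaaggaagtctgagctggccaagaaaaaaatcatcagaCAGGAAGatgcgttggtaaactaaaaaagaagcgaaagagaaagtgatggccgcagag
Far desert site 843 kb downstream, chr12:107160217-107160366, 1 GATA match: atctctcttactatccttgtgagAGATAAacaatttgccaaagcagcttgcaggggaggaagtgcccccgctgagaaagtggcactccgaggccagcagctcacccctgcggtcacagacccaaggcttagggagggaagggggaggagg
Far desert site 855 kb downstream, chr12:107148597-107148746, 1 RUNX match: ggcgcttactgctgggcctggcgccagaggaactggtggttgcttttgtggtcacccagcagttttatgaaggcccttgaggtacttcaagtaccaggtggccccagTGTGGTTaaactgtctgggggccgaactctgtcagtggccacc

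The whole region was sparsely open in progenitors and DN1 cells, almost empty in IgG cultures, and open at many more sites in DN2 cells. The libraries had a peak in 7, 5 and 5 of the 89 sites in LSK, 12 and 5 in DN1, 37 and 38 in DN2a, and 38 and 77 in DN2b, against 0, 0 and 2 in IgG. Both IgG peaks ranked low in their list, at percentiles 1.45 and 3.45. A peak was missing from all 3 IgG lists at 87 of the 89 sites, where the share over all sites of the series was 70.3%. The IgG lists were also the shortest.

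**Figure D1:**
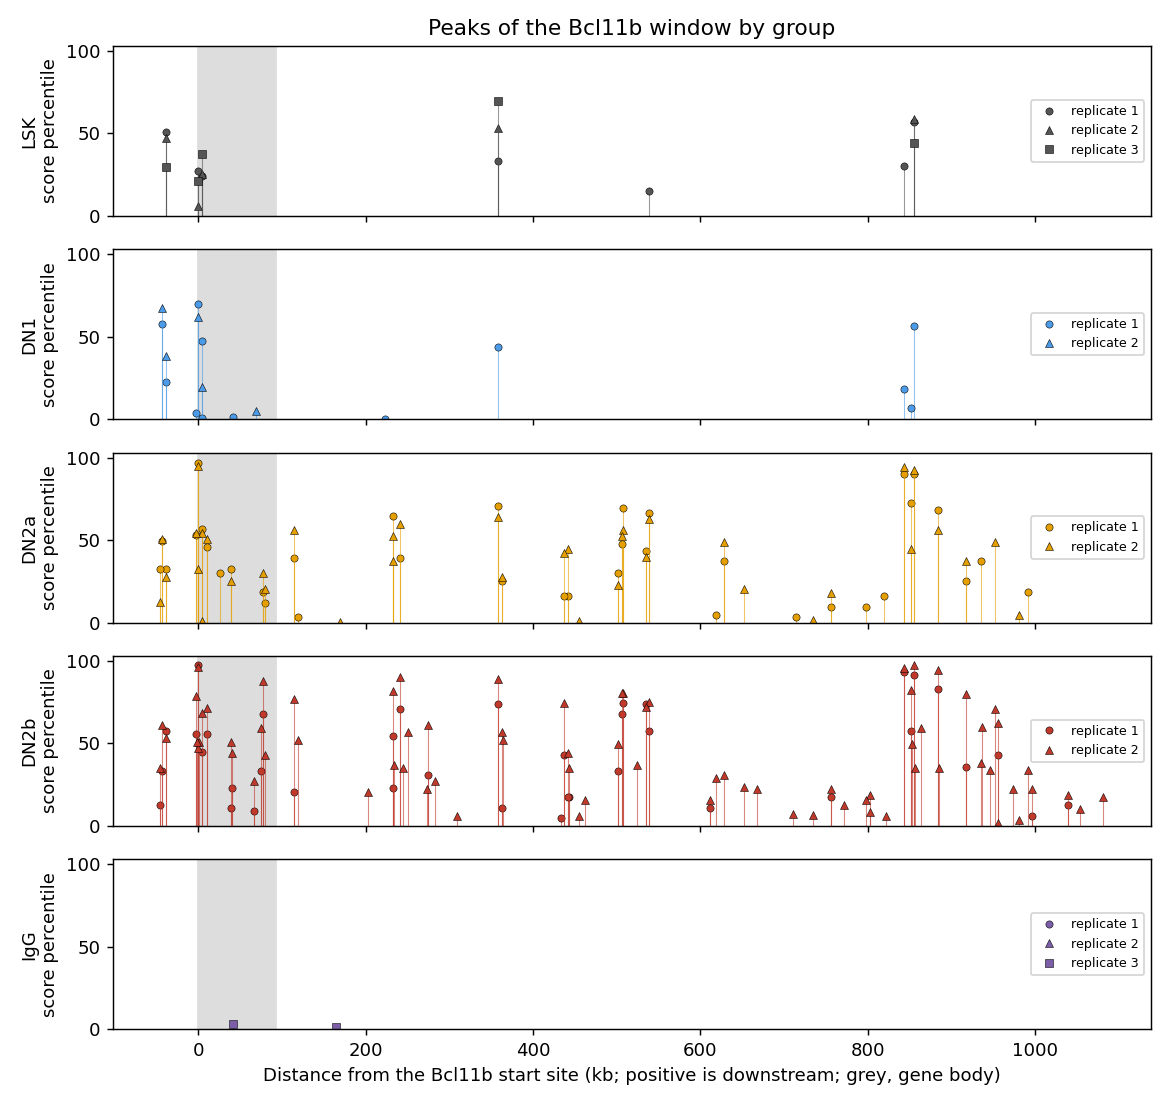
Score percentile within its library (vertical axis, 0 to 100) of every peak in the window against its distance from the Bcl11b start site in kb, with 1 panel per group, 1 marker shape per replicate and the gene body in grey. LSK and DN1 have few peaks, DN2a and DN2b have peaks along the whole desert with the highest between 843 and 855 kb, and IgG has 2 low ones.

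Scaled to list length, the window held 1.30, 0.917 and 0.802 peaks per 10000 peaks in LSK and 1.35 and 0.721 in DN1. DN2a held 5.40 and 6.76 and DN2b 6.34 and 6.99, while IgG held 0, 0 and 0.533. Every DN2 value was above every value of the other groups, and LSK and DN1 overlapped. The mean was 6.37 ± 0.70 (SD, n = 4) in DN2 and 0.702 ± 0.513 (SD, n = 8) in the other libraries, a difference of 5.67 (two-sided exact permutation test, p = 0.00202, the smallest that 495 divisions of the libraries can give). DN2b (6.67 ± 0.458, SD, n = 2) and DN2a (6.08 ± 0.956, SD, n = 2) differed by less than the spread of DN2a, and so did LSK (1.01 ± 0.261, SD, n = 3) and DN1 (1.03 ± 0.444, SD, n = 2) by less than theirs. Neighbouring stages were not tested against each other.

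Every DN2 library was also above every other library in each of the 4 regions. The other stages differed by region. Upstream, DN1 held 0.415 and 0.432 peaks per 10000 against 0.321 to 0.371 in LSK, and in the gene body 0.311 and 0.288 against 0.160 to 0.186, while the groups overlapped in both parts of the desert. The gene body values were 3 and 2 peaks in DN1 and 1 in each LSK library. The DN1 peaks there that LSK lacked ranked low, at percentiles 1.13, 0.542 and 4.95. At equal list lengths neither LSK nor DN1 had a gene body peak. DN2a and DN2b overlapped in all 4 regions. Upstream, the DN2 libraries held 0.846 ± 0.256 peaks per 10000 (SD, n = 4) and the others 0.238 ± 0.200 (SD, n = 8). In the gene body the values were 1.01 ± 0.220 and 0.174 ± 0.120, in the near desert 2.36 ± 0.331 and 0.149 ± 0.139, and in the far desert 2.16 ± 0.720 and 0.141 ± 0.173. Each of the 4 differences had an adjusted p of 0.00289 (exact permutation test, Benjamini-Hochberg over 8 tests). In the far desert 1 DN2b library stood apart with 3.23, where the other DN2 libraries held 1.63 to 1.91, and it was also the longest list of the series. Without it the far desert difference was 1.67.

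Against all libraries without ligand (LSK and IgG), the Delta1-cultured libraries (DN1, DN2a and DN2b) held more peaks in the window, 4.59 ± 2.82 (SD, n = 6) against 0.592 ± 0.520 (SD, n = 6), with p = 0.0130 (two-sided exact permutation test). Ligand, culture, IL-7 and stage cannot be told apart in this comparison. The Delta1 libraries spread widely, and the DN1 values lay on either side of the LSK range. By region the difference was 0.529 upstream and 0.638 in the gene body (adjusted p = 0.00289 each), 1.44 in the near desert (0.0411) and 1.39 in the far desert (0.0223, the same exact permutation test over 8 tests). Without the 3 IgG libraries the difference in the window was 3.59 and no longer passed (exact permutation p = 0.119), and no region passed. The window and the upstream region still passed at equal list lengths, and the gene body, near desert and far desert did not (adjusted exact permutation p = 0.0606 each). These 3 were also lost in the upper 50% of each list by score (0.0606, 0.0606 and 0.0519 by the same exact permutation test).

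**Figure D2:**
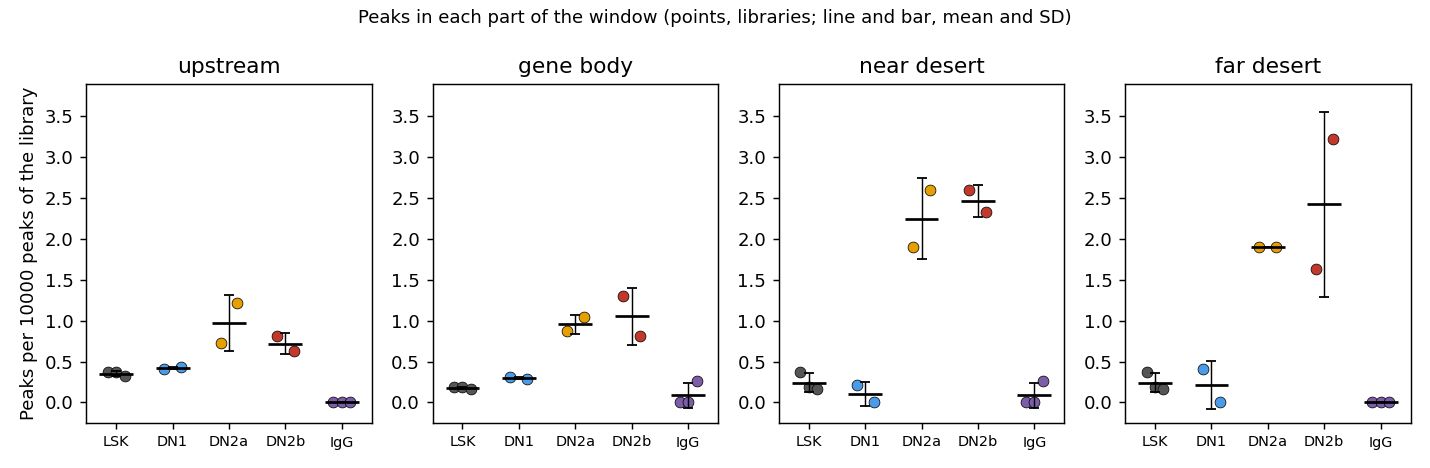
Peaks per 10000 peaks of the library (vertical axis) in the upstream 50 kb, the gene body, the near desert and the far desert. Points are libraries, the line and bar are the mean and SD of each group, and the 4 DN2 libraries lie above all others in each panel.

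Presence was then followed by stage, counting a site as present when at least 2 replicates of the group had a peak. LSK had 5 present sites (30.9% of all sites of the series were present there) and DN1 had 4 (35.4%). DN2a had 29 (26.2%) and DN2b 36 (32.4%), and IgG had 0 (19.1%). With lists of equal length the numbers were 3, 1, 11, 15 and 0 in the same order. Of the 89 sites, 5 were first present in LSK, 1 in DN1, 23 in DN2a and 9 in DN2b, and 51 were present in no group by this rule. Shares over all sites were not computed for these first-stage counts, so they are not read as particular to this locus. Of those seen in a single library (37 sites, against 32.7% of all sites), 28 were in the longest DN2b list alone (13% of all sites). These 28 carried no replicate support. At 73 of the 89 sites only DN2 libraries, 1 or more of them, had a peak (23.6% of all sites).

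The sites open in all 4 DN2 libraries and in no other numbered 17 of 89, against 0.758% of all sites and 0.877% of sites over 100 kb from a protein-coding start, where 7 of the 17 lay. By region they were 1 of 7 upstream, 3 of 13 in the gene body, 10 of 31 in the near desert and 3 of 38 in the far desert. Counted with the same window around each of 21755 protein-coding genes, no other gene had as many. Setd3, Ccdc85c and 3110018I06Rik followed with 16, 15 and 14 in windows that overlap this one, and the next were Thy1, Ube4a, Cd3g and Cd3e with 10 each. The Bcl11b window was not rich in sites as such, with 89 where the median gene had 113.

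**Figure D3:**
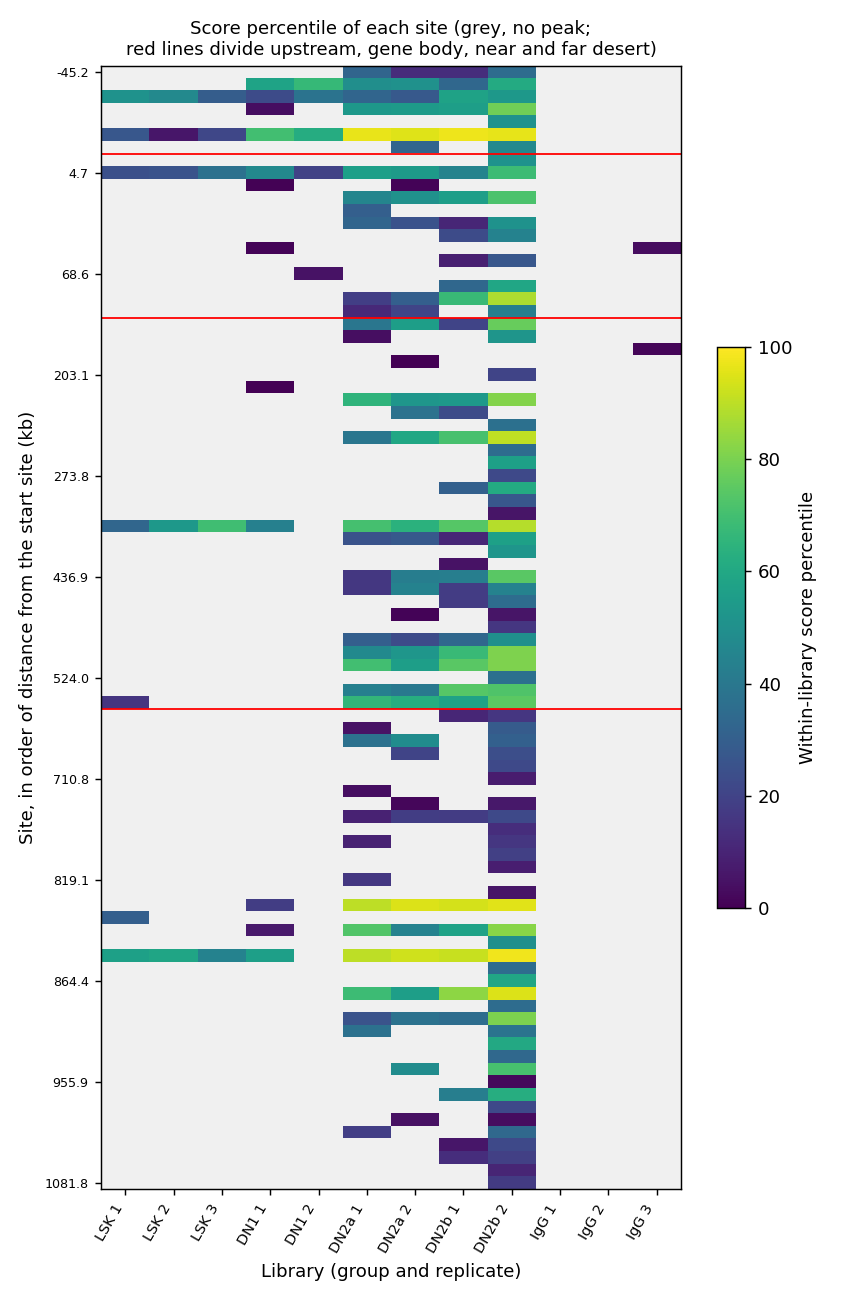
Within-library score percentile (colour) of the 89 sites (rows, in order of distance from the start site in kb) in the 12 libraries (columns), with grey where a library has no peak and red lines between the 4 regions. Most rows are filled in DN2a and DN2b columns only, and 28 are filled in the last DN2b column alone.

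At the promoter, LSK, DN1 and DN2 cells stood at 3 separate levels. The site lay at chr12:108004057-108004266, 0.559 kb upstream of the GENCODE start, and the longest RefSeq transcript starts inside it. Its percentile was 27.3, 6.12 and 21.3 in LSK, 69.7 and 61.8 in DN1, 96.5 and 95.2 in DN2a, and 97.4 and 96.4 in DN2b, with no peak in any IgG library. Values of LSK, DN1 and DN2 did not overlap, while those of DN2a and DN2b did. The group means were 18.2 ± 10.9 (SD, n = 3), 65.7 ± 5.65 (SD, n = 2) and, over both DN2 stages, 96.4 ± 0.928 (SD, n = 4).

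With equal list lengths the promoter peak was not among the listed peaks of any LSK library, and stood at 11.4 and 19.5 in DN1 and between 87.8 and 95.2 in DN2. Among all 21755 promoters, the Delta1-cultured libraries exceeded LSK and IgG at Bcl11b by 77.0 percentile points (exact permutation test, p = 0.00216, adjusted p = 0.0436, Benjamini-Hochberg over all promoters), where 4.77% of promoters were called higher and 0.202% lower. At an unadjusted p below 0.05 these shares were 19.2% and 1.17%. That call was lost when any 1 Delta1-cultured library was left out (adjusted p 0.119 to 0.148 by the same test), without the 3 IgG libraries (0.186), at equal list lengths (0.0705) and in the upper 50% of each list by score (0.0517). In each of these runs the promoter still had the smallest p that the divisions allow, so no promoter of the series could pass. DN2 exceeded the other 8 libraries by 73.1 points (exact permutation p = 0.00202, adjusted p = 0.262). No promoter passed the adjusted DN2 test, and 4.85% had an unadjusted p below 0.05 in the higher direction and 1.66% in the lower. A weaker site over the annotated first exon (chr12:108003537-108003806) had a peak in 1 DN2a library, at 32.6, and 1 DN2b library, at 47.1.

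Upstream of the promoter, the site at chr12:108047317-108047486 was the only one of the 89 open in all 6 Delta1-cultured libraries and in no other (1.9% of all sites). It stood at 58.0 and 67.2 in DN1, 49.3 and 50.6 in DN2a, and 33.3 and 61.3 in DN2b. The DN1 values lay within and above the DN2 range, unlike at the promoter. It carries the 2 ETS matches printed above.

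In the test over all sites, 2 sites of the window were called higher with Delta1, this one and the promoter site (both adjusted p = 0.0394, exact permutation test with Benjamini-Hochberg adjustment, with a difference of 53.3 points here), against 5.23% of all sites, and none lower (0.272%). An unadjusted p below 0.05 in that test was reached by 6 sites in the higher direction (14% of all sites) and by 0 in the lower (1.07%). Both sites lost the call when any 1 Delta1-cultured library other than DN1 replicate 2 was left out (adjusted p 0.0520 to 0.0584 by that test) and without the IgG libraries (0.164). In each of these runs both sites still had the smallest p that the divisions allow, so no site of the series could pass. At equal list lengths the promoter site was called (1 site of the window, against 4.13% of sites higher and 1.73% lower) and the upstream site was not (adjusted p = 0.733 by the exact permutation test), where 2 libraries kept a peak. Open in all 6 Delta1-cultured libraries alone was then 1 site, the promoter (1.84% of sites).

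The remaining upstream sites differed in their stages. The site 2.79 kb upstream (chr12:108006297-108006486) stood at 53.1 and 54.4 in DN2a and 55.9 and 78.5 in DN2b, with a low peak at 3.6 in 1 DN1 library and none elsewhere. The site 38.2 kb upstream (chr12:108041697-108041866) was open in all 9 libraries outside IgG, at 50.8, 47.0 and 29.5 in LSK, 22.7 and 38.3 in DN1, 32.6 and 27.8 in DN2a, and 57.5 and 53.5 in DN2b. Both DN2b values were the highest there, while LSK, DN1 and DN2a overlapped, and at equal list lengths a peak remained in LSK replicates 1 and 2 and DN2b replicate 1 only. The site 45.2 kb upstream (chr12:108048677-108048866) was open in DN2 only, at 32.6, 12.5, 12.9 and 35.3.

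Sites open in all libraries of LSK, DN1, DN2a and DN2b and in no IgG library numbered 3 (3.17% of all sites). They were the promoter, the site 38.2 kb upstream and an intronic site 4.66 kb into the gene (chr12:107998837-107999046). None of the 3 kept this pattern at equal list lengths. The intronic site stood at 24.2, 25.6 and 37.2 in LSK, 47.2 and 19.6 in DN1, 56.5 and 54.4 in DN2a, and 44.9 and 68.5 in DN2b. LSK values lay below all DN2 values, and DN1 replicate 1 lay inside the DN2 range. This order was lost at equal list lengths, where the intronic site had a peak in DN2a only, at 9.59 and 20.1. No site of the window was open in all 12 libraries, the pattern of 7.68% of all sites. None was open in all LSK libraries alone (0.649%), in all IgG libraries alone (1.89%) or in all LSK and IgG libraries alone (0.0987%).

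The other main gene body sites lay in introns and were open in DN2 only. The highest in DN2b, 77.3 kb into the gene (chr12:107926177-107926386), stood at 18.4 and 30.2 in DN2a and 67.9 and 87.8 in DN2b, so the stages did not overlap there, nor did they at equal list lengths (0 in both DN2a libraries, 40.1 and 58.8 in DN2b). The site 10.4 kb into the gene (chr12:107993137-107993346) stood at 45.5, 50.6, 55.9 and 71.6 and that at 38.8 kb (chr12:107964657-107964946) at 32.6, 25.3, 10.8 and 51.0, both in the order DN2a, DN2b. Intronic sites at 75.4, 67.0 and 40.6 kb were open in both DN2b libraries and no other, at 33.3 and 59.2, 8.85 and 27.2, and 23.0 and 44.2.

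Over the whole window, 9 sites had this DN2b-only pattern (1.86% of all sites), with 3 in the gene body, 2 in the near desert and 4 in the far desert. The most highly ranked of them in the desert lay 956 kb downstream of the start (chr12:107047157-107047346), at 42.7 and 62.2. Next came a site 274 kb downstream (chr12:107729357-107729506) in an exon of the long non-coding RNA gene 4930465M20Rik, at 30.8 and 61.3. None of the 9 was listed in any library at equal list lengths.

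Of the 17 sites open in all 4 DN2 libraries and no other, 10 lay in the near desert. That order of the regions did not hold under other counts. Of the 73 sites with a peak in DN2 libraries only, 27 lay in the near desert and 34 in the far desert, and of the 7 sites with the 4-library pattern at equal list lengths, 3 lay in each. The highest of these 10 in DN2b lay 241 kb downstream of the start (chr12:107762237-107762426), in an intron of the long non-coding RNA gene Gm15208, and stood at 39.3 and 59.5 in DN2a and 70.9 and 90.4 in DN2b. Another site of Gm15208, at 233 kb (chr12:107770597-107770786), stood at 64.9, 52.5, 54.3 and 81.5. The stages separated at the first, also at equal list lengths (0 and 29.0 in DN2a, 45.7 and 67.4 in DN2b), and overlapped at the other.

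A cluster lay 502 to 539 kb downstream. Its members at 508 kb (chr12:107495697-107495866) and 506 kb (chr12:107497017-107497226) stood at 69.6, 56.2, 74.4 and 80.6, and at 47.4, 52.5, 67.9 and 80.6, in the order DN2a, DN2b. The site at 536 kb, in an intron of Gm3234 (chr12:107467977-107468146), stood at 43.5, 40.0, 73.6 and 72.3, and the site at 502 kb (chr12:107501937-107502126) at 30.3, 22.9, 33.3 and 49.7. At all 4 of them both DN2b values were above both DN2a values on the full lists, which differ in length. This held at 506 and 536 kb only when list lengths were made equal. The site at 508 kb then stood at 36.8 and 23.3 in DN2a and 52.3 and 34.2 in DN2b, so the stages overlapped, and the site at 502 kb had no peak left in any library. A neighbour over an exon of Gm3234 (chr12:107464857-107465026) had DN2 values of 66.1, 62.5, 57.5 and 75.0 and also a peak at 15.3 in LSK replicate 1.

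The remaining near desert sites open in all 4 DN2 libraries and no other were 4, all nearer to the gene than this cluster. The site at 437 kb (chr12:107566537-107566786) stood at 16.1, 42.3, 42.7 and 74.3, that at 442 kb (chr12:107561297-107561486) at 16.1, 44.5, 17.8 and 44.2, and that at 363 kb (chr12:107640617-107640806) at 25.5, 27.8, 10.8 and 57. Nearest to the gene end, 20.9 kb beyond it, a site (chr12:107889357-107889606) stood at 39.3, 56.2, 20.4 and 76.8. DN2a and DN2b overlapped at all of these but the site at 437 kb, where they overlapped at equal list lengths (0 and 0.487 in DN2a, 0 and 13.0 in DN2b).

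By the rule of at least 2 replicates, one near desert site was present before DN2. At 358 kb downstream (chr12:107645577-107645826) the percentile was 33.1, 53.5 and 69.4 in LSK, 43.6 and 0 in DN1, 70.6 and 63.9 in DN2a, and 73.6 and 88.9 in DN2b. LSK and DN2 overlapped there. The DN1 library without a peak was DN1 replicate 2, whose list of 69391 peaks was longer than any LSK list. That library had no peak anywhere in the desert.

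The far desert held the highest desert percentiles, at 2 sites towards either end of the long non-coding RNA gene Gm16084 (chr12:107147164-107160207, minus strand). The site at 843 kb (chr12:107160177-107160366) overlaps the gene's first exon and start. It stood at 89.9 and 94.5 in DN2a and 93.5 and 95.5 in DN2b, with 18.3 in DN1 replicate 1 and no peak in DN1 replicate 2, LSK or IgG. The DN2 mean was 93.4 ± 2.45 (SD, n = 4), against 96.4 at the promoter.

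The site at 855 kb (chr12:107148537-107148766), in an intron of Gm16084, was already open in progenitors. It stood at 56.8, 58.9 and 44.3 in LSK, 56.6 and 0 in DN1, 89.9 and 92.7 in DN2a, and 91.5 and 97.7 in DN2b. The DN2 mean was 93.0 ± 3.38 (SD, n = 4) and the LSK mean 53.3 ± 7.90 (SD, n = 3), and the groups did not overlap. Between these sites, one at chr12:107151137-107151366 stood at 72.7, 44.5, 57.5 and 82.4 in DN2, with 6.79 in DN1 replicate 1. In all, 6 sites overlapped Gm16084, and none of them had a peak in all 4 DN2 libraries and no other.

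**Figure D4:**
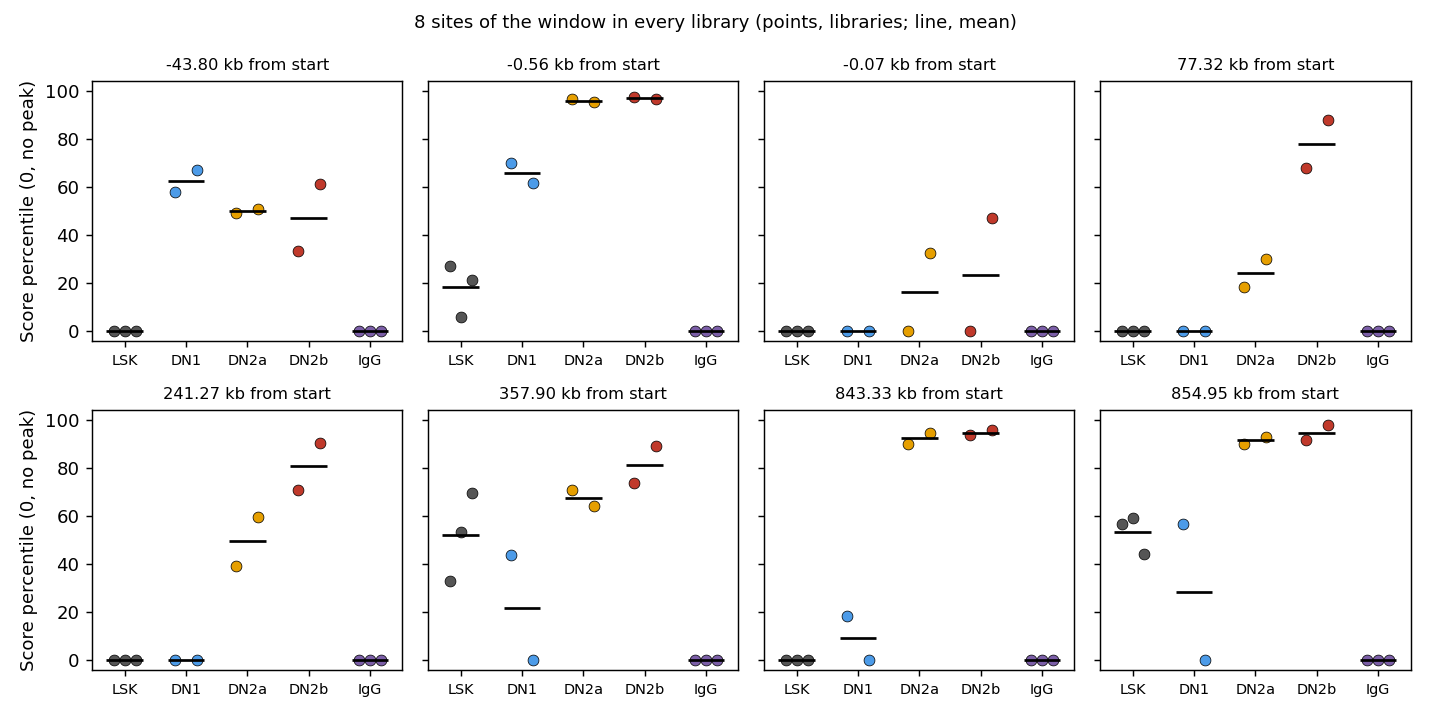
Within-library score percentile (vertical axis, 0 for no peak) in every library at 8 sites, in order of distance from the start site in kb. Points are libraries and lines are group means. At 843 kb DN2 stands near 93 with little below it, at 855 and 358 kb LSK has values too, and at the promoter (-0.56 kb) DN1 lies between LSK and DN2.

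The far desert had 3 sites open in all 4 DN2 libraries and no other. At 884 kb (chr12:107119197-107119406) the values were 68.5 and 56.2 in DN2a and 82.9 and 94.6 in DN2b. At 917 kb (chr12:107086357-107086526), in an intron of the long non-coding RNA gene Gm16086, they were 25.5, 37.6, 35.7 and 80.1, and at 756 kb (chr12:107247217-107247426) 9.65, 18.2, 17.8 and 22.2. The only annotated protein-coding gene of the desert, 3110018I06Rik, had no peak within 1 kb of its start in any library.

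Over the 17 sites open in DN2 alone, the median percentile was 32.6 and 42.3 in DN2a and 42.7 and 74.3 in DN2b. The same medians over all such sites of the series were 43.5, 42.3, 55.9 and 75.0, so the medians of the window were equal to or below these. Both DN2b values were above both DN2a values at 9 of the 17, and the reverse held at 0. With equal list lengths these numbers were 5 and 0. The same count was not made over all such sites of the series, so this order is not read as particular to the window. The longest list, DN2b replicate 2, had the highest value at 15 of them, and its part in the DN2b order was not tested. At equal list lengths 3 of the 17 kept a peak in each of the 4 DN2 libraries, while 5 had none left, and 7 sites of the window then had the pattern (1.97% of sites).

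In the test of each site over all 170207, every DN2 value was higher than every other value at 23 sites of the window, against 2.67% of all sites. An unadjusted p below 0.05 (two-sided exact permutation test) was reached in the higher direction at 27 sites (9.12% of all sites) and in the lower direction at 0 (1.61%). None passed the adjusted threshold, which no site of the series did (0%). The smallest p that 495 divisions can give, 0.00202, was reached at 22 sites of the window and had an adjusted p of 0.0784 by Benjamini-Hochberg adjustment. At equal list lengths, with fewer sites tested, 9 sites passed (adjusted p = 0.0392 by the same exact permutation test, 4.12% of sites higher) and none of the window was lower (1.03%). They were the promoter and the sites 2.79 kb upstream and at 233, 508, 539, 843, 852, 855 and 884 kb downstream.

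The strongest peak of each site was searched for the 6 motifs, with the same search in all sites of the series. RUNX was matched in 11 of 89 (10.5% of all sites), ETS in 14 (13.5%), the E box in 11 (11.5%), GATA in 6 (8.29%), RBPJ in 2 (3.41%) and TCF1 and LEF1 in 1 (3.62%). Among the 17 sites open in DN2 alone the numbers were 3, 5, 2, 1, 0 and 0 in the same order, and over all 1291 such sites of the series the shares were 23.5%, 20%, 17.4%, 17.7%, 4.34% and 9.22%. These are matches of letters in a 150 bp peak and no evidence of binding. The median GC content was 52% in the window and 49.3% over all sites.

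Promoters of known regulators and partners were compared by the same tests. Of 12 regulators, Tcf7 and Myb were called higher with Delta1 (adjusted p = 0.0436, exact permutation test over all promoters, where 4.77% of promoters were called higher and 0.202% lower) and none lower. The adjusted DN2 test called 0% of the 21755 promoters in either direction, so no list below could have a call in DN2. Tcf7, which encodes TCF1, stood at 43.6 and 45.2 in DN1 and between 54.3 and 73.0 in DN2, with no peak in LSK or IgG. Unlike Bcl11b, it had no peak in progenitors on the full lists. At equal list lengths neither promoter had a peak in LSK. Tcf7 then had none in DN1 either and stood at 8.51 to 29.0 in DN2. The median difference with Delta1 was 2.23 points over the 12 regulators, against 0.205 over all promoters. Notch1, Rbpj and Ikzf1 had no peak in any library and entered the median of the regulators as 0. Promoters without a peak entered the median over all promoters as 0 too, and the 2 sets were not matched for this. At equal list lengths the differences were above 0 for Tcf7, Runx3, Tcf3 and Myb (2.30 to 25.2). They were below 0 for Cbfb, Runx1 and Tcf12 (-3.58 to -35.6) and 0 for the others.

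Of 6 genes that BCL11B is known to restrain, Id2 and Klrb1c were called higher with Delta1 by the same exact permutation test (adjusted p = 0.0436), against 4.77% of all promoters, and none was lower (0.202%). Id2, an inhibitor of E proteins, was open in all 12 libraries, at 89.3 to 95.4 without Delta1 and 96.0 to 98.3 with it. Klrb1c, the NK cell receptor NK1.1, stood at 92.7 and 88.7 in DN1, 85.0 and 87.7 in DN2a, and 65.6 and 88.2 in DN2b, with 48.6, 63.6 and no peak in LSK. The median difference with Delta1 was 15.5 points over these 6 genes on the full lists, where Nfil3 alone went the other way (-22.2). At equal list lengths the differences were 3.34 for Zbtb16, 3.73 for Id2, 4.86 for Kit, 0 for Il2rb and -32.0 for Nfil3. Only the Klrb1c difference was then above 15.5 points. None of Tcf7, Myb, Id2 and Klrb1c passed at equal list lengths (adjusted p 0.0705 to 0.404 by the exact permutation test), where no promoter of the series could pass. Of 6 relatives and partners, among them the paralogue Bcl11a and the chromatin remodeller subunit Chd4, 0 were called with Delta1, where 6 promoters are too few to be read against the 4.77% called higher and 0.202% lower.

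The promoters whose percentiles followed that of Bcl11b most closely over the 12 libraries were P2ry10 (Pearson's r = 0.980), Slc9a2 (0.977), Il9r (0.976), C1qtnf1 (0.975) and Card6 (0.972). P2ry10 stood at 10.5 to 29.5 in LSK, 56.6 and 60.2 in DN1 and 68.9 to 87.1 in DN2, with no peak in IgG. Il9r, a cytokine receptor gene, had no peak in LSK, 50.6 and 53.4 in DN1 and 81.5 to 95.8 in DN2. The 12 points share list length and library quality with the Bcl11b values, so these coefficients are descriptions.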

How the data were processed

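Adapter-trimmed paired reads were aligned by the authors to mm10 with bwa (0.7.12 in the submitters' processing notes), and hotspot2 called the peaks of each library by itself (false discovery rate 0.05). The deposited score of each 150 bp peak is a whole number from 1 to 150 whose meaning is not given in the sources used here, so it served only as a rank: percentile = 100 × average rank over list length, the highest peak of a site counting, and 0 without a peak. Depth is unknown, and peak counts stand in its place.

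Peaks of autosomes and X were merged at 1 bp of overlap (Python 3.11.15, numpy 2.4.6, pandas 2.3.3). The start site was the 5' end of the GENCODE M21 gene record, and a promoter value was the highest percentile of a peak whose midpoint lay within 1 kb of it. DN2 (4 libraries) was compared with the other 8, and Delta1 culture (6) with LSK and IgG (6), by two-sided exact permutation tests over 495 and 924 divisions, with Benjamini-Hochberg adjustment over all sites, all promoters or the 8 region tests. The tests were checked on simulated data. The authors' own test needs read profiles and could not be used on peak lists. Groups follow the labels, and replicate numbers follow deposition order. Where the labels do not say that libraries came from separate animals, p-values measure only the spread between these libraries.

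Named sites were those within 1 kb of the start, those in one of the presence patterns, the 3 highest in DN2b in each region and those past an adjusted p of 0.05, and 2 more were named after their values were seen (chr12:107151137-107151366 and chr12:107464857-107465026). The sequence of the site nearest the start, which overlaps the 5' untranslated region, is not shown. Members, lists and tests were chosen with earlier results of these data known. Alternatives were equal list lengths, the upper 50% of each list, merging of peaks with 50 bp of overlap, merging of peaks up to 150 bp apart, presence counted from 1 replicate or from every replicate, promoter windows of 500 bp and 2.5 kb, all chromosomes, peaks not divided by list length, each library left out, and the IgG libraries left out.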

Additional observations from a re-analysis of the deposited data

How the results depend on the processing

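The excess of peaks per 10000 in DN2, in the window and in its 4 regions, stayed past 0.05 under every alternative run, and none of these differences turned its direction. Among the named sites, values that had not been called changed sign. The DN2 difference at the site 43.8 kb upstream (chr12:108047317-108047486) went from 33.0 to -0.479 at equal list lengths and -0.261 in the upper 50% of each list. The Delta1 difference at the site 38.2 kb upstream (chr12:108041697-108041866) went from 17.5 to -1.86 at equal lengths and -3.72 without the IgG libraries. Leaving out each library in turn gave 5.46 to 5.99 for the window. At equal list lengths the Delta1 differences were 0.354 in the gene body, 1.37 in the near desert and 0.910 in the far desert (adjusted exact permutation p = 0.0606 each), and 66.4 at the promoter (0.0705). In the upper 50% of each list they were 0.452, 1.28, 0.766 and 72.2 (adjusted exact permutation p 0.0606, 0.0606, 0.0519 and 0.0517). Without the IgG libraries they were 3.59 in the window, 0.352 upstream, 0.594 in the gene body, 1.37 and 1.27 in the near and far desert, and 67.9 at the promoter, none past 0.05. In these settings the promoter had the smallest p that the divisions allow, so no promoter of the series could pass. With a promoter window of 500 bp, which leaves out the main promoter site, the Delta1 difference was 13.3 (adjusted exact permutation p = 1). The cause of these changes was otherwise not tested.

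At equal list lengths 7 sites were open in DN2 alone, and 3, 1, 11 and 15 were present in LSK, DN1, DN2a and DN2b. In the upper 50% these numbers were 6, and 2, 2, 10 and 16. Counting presence in 1 replicate gave 46 for DN2a, 79 for DN2b, 13 for DN1 and 2 for IgG. Sites past the adjusted threshold were 9 for DN2 at equal lengths, and for Delta1 1 at equal lengths, 1 in the upper 50% and 0 without the IgG libraries, where no site of the series could pass. Leaving out each library in turn gave 17 to 20 sites open in DN2 alone, 1 to 4 open with Delta1 alone (4 without DN1 replicate 2), 0 to 5 called with Delta1 (5 without DN1 replicate 2, and 0 without any 1 of the other Delta1-cultured libraries), and a promoter difference of 74.8 to 81.9. The unknown depth limits every absence: a site missing from a short list may be open below its threshold. No paired analysis was made, because replicate numbers follow deposition order and the labels do not say which libraries share an LSK isolate.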
